A study of Mus musculus with 14 samples.

Results

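The liver matrix genes described here are 10 genes outside the collagen family: the proteoglycan genes Lum, Dcn and Bgn, the glycoprotein gene Fn1, the cross-linking enzyme gene Lox, the protease gene Mmp2, the protease inhibitor gene Timp1, and the 3 ligand genes Tgfb1, Tgfb2 and Tgfb3. They were chosen by name, with earlier results of these data known. Each was read from the probe set with that single symbol and the highest mean over all 14 arrays. All 10 were measured, of 22180 genes with 1 symbol, and Bgn alone had a second probe set. Values are log2 intensities, so a difference of 1 is a 2-fold change, and ± after a difference is its standard error.

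The arrays hold liver RNA of male C57BL/6 mice, 1 sample per array, and all mice were Alb-cre+, carrying a Cre recombinase driven by the albumin promoter and therefore active in hepatocytes. The KO mice were LMNA flx/flx (2 floxed copies of the lamin A/C gene), the HET mice LMNA flx/+ (1 floxed copy) and the WT mice LMNA +/+ (none). Surwit high fat diet with 42 g/L of carbohydrate in the water (55% fructose and 45% sucrose), here HFD, was given for 14 weeks in 3 KO samples (age 35.3 weeks) and 3 HET samples (30 to 30.4 weeks). Standard chow was given in 3 KO samples (38.9 weeks), 3 HET samples (24 to 26.4 weeks) and 2 WT samples (24.6 and 27 weeks). The labels do not state that each sample came from a separate mouse. Age and genotype cannot be told apart, because every KO sample came from an older animal than every HET or WT sample. The albumin promoter leaves Lmna in place in stellate cells, fibroblasts, endothelium and macrophages. In whole liver, fewer cells of a type and less RNA per cell cannot be told apart.

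Lumican, decorin and biglycan are small leucine-rich proteoglycans that sit on collagen fibrils, and fibronectin forms a meshwork on which other matrix proteins assemble. Lysyl oxidase cross-links collagen and elastin, matrix metalloproteinase 2 is a gelatinase, and Timp1 inhibits metalloproteinases. The TGF-beta ligands are secreted in a latent form, held in the matrix by latent-TGF-beta-binding proteins, released by integrins or proteases, and then signal through receptor kinases and SMAD proteins. In injured liver, stellate cells and portal fibroblasts are the best known sources of fibrillar matrix, whereas hepatocytes make plasma fibronectin.

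KO livers held more Lum and Mmp2 transcript than HET livers on both diets, with similar estimates on each. The fit was not precise enough to show that the differences were equal on both diets. On HFD Tgfb2, Tgfb3 and Bgn were higher in KO livers too, and Fn1 was lower. Tgfb2 was the member that also differed between diets within KO livers. Lox and Timp1 were read below the array medians almost throughout, so the size of their differences is uncertain. The median log2 value over all probe sets of an array was 2.21 to 2.301, and for 8 members every one of the 14 arrays lay above its own median. Tgfb2 and Tgfb3 were the dimmest of these 8, at mean percentiles of 53.8 and 53.1 among the genes of an array. Against the higher median over genes alone, Tgfb2 lay below in WT array N1 (2.69 against 2.92). Tgfb3 did so in HET chow array F2 (2.75 against 2.97).

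**Figure D1:**
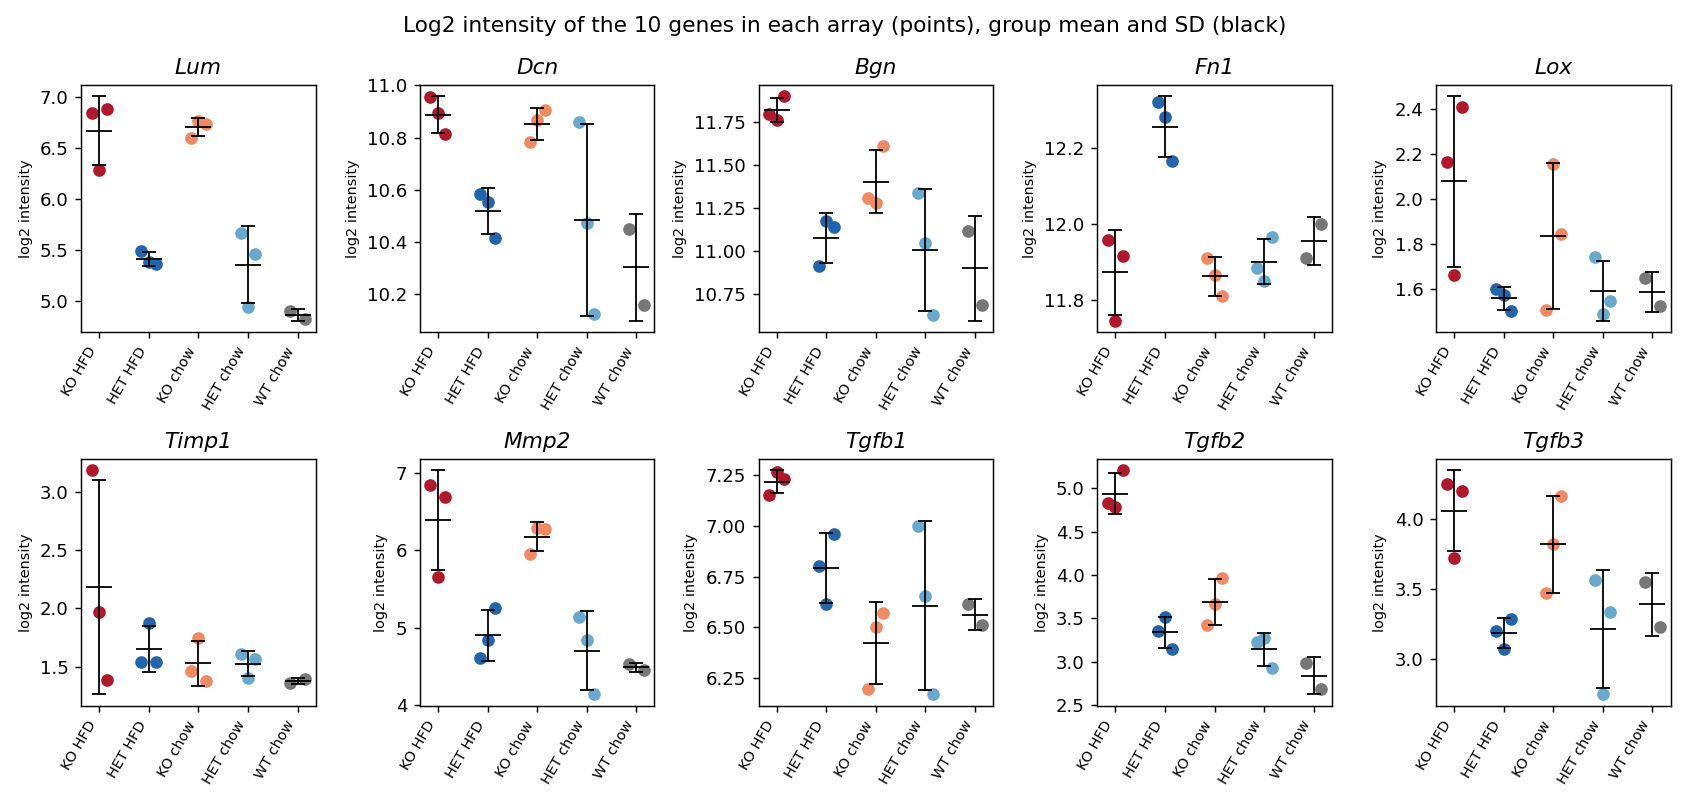
Log2 intensity (y axis) of the 10 genes in every array, by group (x axis), with group means and SD in black, for 3 arrays per group and 2 for WT chow. For Lum and Mmp2 all 6 KO arrays lie above all 8 HET and WT arrays, Tgfb2 is highest in KO HFD livers, and Fn1 is highest in HET HFD livers.

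Lmna itself, read by 1 dim probe set, was the check of the genotype labels. On chow it read 4.09, 3.78 and 3.67 in KO livers, against 4.29, 4.40 and 4.25 in HET livers and 4.50 and 4.43 in WT livers. On HFD it read 3.90, 4.07 and 3.99 in KO livers and 4.07, 4.07 and 4.30 in HET livers. On neither diet alone was the KO minus HET difference called. It was -0.47 ± 0.12 on chow (limma adjusted p = 0.0823) and -0.16 ± 0.12 on HFD (limma adjusted p = 0.517), where the groups met. Averaged over diets the KO minus HET difference was -0.31 ± 0.09 (limma adjusted p = 0.0386). Against WT livers on chow it was -0.62 ± 0.14 (limma adjusted p = 0.0393). Over all genes, 13 pairs of arrays within groups had correlations from 0.989 to 0.994, and 78 pairs across groups had 0.980 to 0.994.

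Among the proteoglycans, lumican separated the genotypes on either diet. On chow Lum read 6.60, 6.76 and 6.73 in KO livers, against 5.67, 4.94 and 5.46 in HET livers and 4.90 and 4.82 in WT livers. On HFD it read 6.84, 6.28 and 6.88 in KO livers and 5.49, 5.38 and 5.36 in HET livers. The lowest KO array, C3 on HFD, thus still lay above the highest control array, F1 of the HET chow group. KO exceeded HET livers by 1.34 ± 0.19 on chow (limma adjusted p = 0.002) and by 1.26 ± 0.19 on HFD (limma adjusted p = 0.0014), or 2.54-fold and 2.39-fold. Against WT it was 1.84 ± 0.21 (limma adjusted p = 5.15e-04), and none of these 3 calls was lost when any 1 array was left out. Within KO livers diet moved Lum little, with an HFD minus chow difference of -0.03 ± 0.19 and a 95% interval from -0.43 to 0.37. The interaction of genotype and diet was -0.09 ± 0.26 for Lum, with a 95% interval from -0.66 to 0.48.

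Decorin, whose gene is the neighbour of Lum in the RefSeq annotation of GRCm38.p6, differed less. Dcn read 10.78, 10.87 and 10.91 in KO livers on chow, against 10.86, 10.47 and 10.13 in HET livers and 10.45 and 10.16 in WT livers. On HFD the readings were 10.96, 10.89 and 10.81 in KO livers and 10.58, 10.55 and 10.42 in HET livers. The KO arrays were close together, whereas HET F1 on chow reached the KO level. KO minus HET was 0.37 ± 0.16 on chow (limma adjusted p = 0.321) and 0.37 ± 0.16 on HFD (limma adjusted p = 0.197), so neither passed the threshold of 0.05. Averaged over both diets it was 0.37 ± 0.11 (limma adjusted p = 0.0556), and without HET F1 that average was called (limma adjusted p = 0.00798). On chow the KO minus HET difference of Dcn spanned 0.19 without P1 to 0.55 without F1.

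Biglycan, the sister of decorin, was called on HFD. Bgn read 11.80, 11.76 and 11.90 in KO livers on HFD, against 10.91, 11.17 and 11.14 in HET livers. In chow-fed mice it read 11.31, 11.28 and 11.61 in KO livers, against 11.34, 11.05 and 10.63 in HET livers and 11.11 and 10.68 in WT livers. HET F1 again lay among the KO arrays on chow, while on HFD the groups were apart. The KO minus HET difference was 0.745 ± 0.176 on HFD (limma adjusted p = 0.021) and 0.40 ± 0.18 on chow (limma adjusted p = 0.346). The HFD call was lost without HET A2, KO C2 or KO C4 (limma adjusted p of 0.0605 to 0.0788). A second, dimmer Bgn probe set gave 0.78 ± 0.23 on HFD (limma adjusted p = 0.0612) and 0.60 ± 0.23 on chow (limma adjusted p = 0.268), in the same direction, and neither passed. Both probe sets were called for the average over diets, at 0.57 ± 0.12 (limma adjusted p = 0.0116) for the brighter and 0.69 ± 0.16 (limma adjusted p = 0.0185) for the dimmer, when every probe set was tested on its own. Bgn was also 0.42 ± 0.18 higher in KO livers on HFD than in KO livers on chow, without overlap, but this did not pass (limma adjusted p = 0.401).

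Fibronectin was the member that was lower in KO livers. Fn1 read 11.96, 11.75 and 11.92 in KO livers on HFD, against 12.32, 12.28 and 12.17 in HET livers. Chow-fed mice gave 11.91, 11.87 and 11.81 in KO livers, against 11.88, 11.85 and 11.97 in HET livers and 11.91 and 12.001 in WT livers. The HET HFD arrays were the ones that stood apart, above the other 11 arrays. The KO minus HET difference on HFD was -0.38 ± 0.10 (limma adjusted p = 0.0291), and on chow it was -0.04 ± 0.10 with a 95% interval from -0.25 to 0.17 (limma adjusted p = 0.924). In HET livers the HFD minus chow difference was 0.36 ± 0.10 (limma adjusted p = 0.193), and the interaction of genotype and diet was -0.35 ± 0.14 (limma adjusted p = 0.43). The change of Fn1 with diet was therefore not shown to differ between genotypes. The HFD call was lost without HET A2, HET B1, KO C3 or KO C4 (limma adjusted p of 0.0684 to 0.11).

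Lysyl oxidase was close to the floor of the arrays. Lox read 2.16, 1.67 and 2.41 in KO livers on HFD, against 1.60, 1.57 and 1.503 in HET livers. Chow-fed mice gave 1.51, 2.15 and 1.84 in KO livers, against 1.75, 1.49 and 1.55 in HET livers and 1.65 and 1.53 in WT livers. In 1 of the 14 arrays, KO C4, it exceeded the array median. KO minus HET was 0.52 ± 0.19 on HFD (limma adjusted p = 0.123) and 0.24 ± 0.19 on chow (limma adjusted p = 0.651). Without KO C3 the HFD difference was 0.73 and was called (limma adjusted p = 0.0284).

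Mmp2 had the largest KO minus HET difference of the 10 members averaged over both diets, 1.48 ± 0.22 (limma adjusted p = 8.18e-04). On HFD it read 6.83, 5.65 and 6.68 in KO livers and 4.60, 4.83 and 5.26 in HET livers. On chow it read 5.95, 6.29 and 6.28 in KO livers, against 5.14, 4.83 and 4.14 in HET livers and 4.53 and 4.45 in WT livers. The groups did not overlap on either diet, although KO C3 was the lowest of the 6 KO arrays. The difference was 1.49 ± 0.30 on HFD (limma adjusted p = 0.00974) and 1.47 ± 0.30 on chow (limma adjusted p = 0.0265), or 2.81-fold and 2.77-fold. Against WT it was 1.69 ± 0.34 (limma adjusted p = 0.0245). The chow call against HET was lost without F2, P1, H2 or I1 (limma adjusted p of 0.0662 to 0.107), and that against WT without G1, N1, H2 or I1 (limma adjusted p of 0.085 to 0.177). In KO livers HFD and chow differed by 0.22 ± 0.30, with a 95% interval from -0.44 to 0.87. The interaction of genotype and diet was 0.02 ± 0.43 for Mmp2, with a 95% interval from -0.91 to 0.95. That interval is too wide to show an equal difference on both diets.

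Timp1, the inhibitor, showed no such separation. It read 3.19, 1.97 and 1.39 in KO livers on HFD, against 1.54, 1.88 and 1.54 in HET livers. In chow-fed mice it read 1.47, 1.75 and 1.38 in KO livers, against 1.61, 1.40 and 1.57 in HET livers and 1.36 and 1.39 in WT livers. A single array, KO C2 on HFD, exceeded its array median, while KO C4 of the same group was among the lowest. The HFD difference of 0.53 ± 0.32 (limma adjusted p = 0.392) became 0.02 without C2. On chow KO minus HET was 0.00 ± 0.32 (limma adjusted p = 0.998), and -0.11 with each array centred on its median over all genes.

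The TGF-beta ligands differed in which comparisons were called, and they were not tested against one another. On HFD the KO arrays of each lay above its HET arrays without overlap. Tgfb2 read 4.83, 4.78 and 5.21 in KO livers on HFD, against 3.36, 3.51 and 3.15 in HET livers. In chow-fed mice it read 3.43, 3.67 and 3.96 in KO livers, against 3.22, 3.28 and 2.93 in HET livers and 2.99 and 2.69 in WT livers. The 3 KO HFD arrays thus lay above all 11 others. KO minus HET was 1.60 ± 0.17 on HFD (limma adjusted p = 1.62e-04), or 3.03-fold, and 0.54 ± 0.17 on chow (limma adjusted p = 0.159). Against WT on chow it was 0.85 ± 0.19 (limma adjusted p = 0.0451), a call lost without any 1 of 10 of the arrays (limma adjusted p of 0.0526 to 0.339; either of the WT arrays, HET F1, F2, A2 or B1, or KO C2, C3, H2 or I1). Between diets Tgfb2 was 1.25 ± 0.17 higher in KO livers on HFD than in KO livers on chow (limma adjusted p = 0.0117), at ages of 35.3 and 38.9 weeks. This call was lost without H1 or H2 (limma adjusted p of 0.0517 to 0.061). In HET livers the HFD minus chow difference was 0.20 ± 0.17 (limma adjusted p = 0.756). The interaction of genotype and diet, 1.06 ± 0.24, did not pass over all genes (limma adjusted p = 0.174), so a larger diet difference in KO livers was not shown.

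Tgfb3 was higher in KO livers on HFD, at 4.25, 3.72 and 4.20, against 3.20, 3.07 and 3.28 in HET livers. On chow it read 3.47, 3.82 and 4.16 in KO livers, against 3.56, 2.75 and 3.33 in HET livers and 3.55 and 3.23 in WT livers, and the groups overlapped. It was 0.87 ± 0.22 higher in KO than HET livers on HFD (limma adjusted p = 0.0312), and 0.61 ± 0.22 on chow (limma adjusted p = 0.233). The HFD call was lost without A2, B1, B2, C2 or C4 (limma adjusted p of 0.0568 to 0.117), whereas the average over both diets, 0.74 ± 0.16 (limma adjusted p = 0.00983), kept its call without any 1 array.

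Tgfb1, the ligand most often studied in liver fibrosis, was not called between genotypes. It read 7.16, 7.27 and 7.23 in KO livers on HFD, against 6.80, 6.61 and 6.96 in HET livers. On chow it read 6.19, 6.50 and 6.57 in KO livers, against 6.998, 6.65 and 6.17 in HET livers and 6.62 and 6.51 in WT livers. KO arrays were the highest on HFD without overlap, while on chow their mean was the lowest of the 5 groups and their range lay inside that of the HET arrays. The KO minus HET difference was 0.43 ± 0.18 on HFD (limma adjusted p = 0.198) and -0.18 ± 0.18 on chow (limma adjusted p = 0.735), and the interaction was 0.61 ± 0.26 (limma adjusted p = 0.458). In KO livers HFD exceeded chow by 0.80 ± 0.18 with no overlap, which did not pass over all genes (limma adjusted p = 0.0951). Averaged over both diets KO minus HET was 0.12 ± 0.13 (limma adjusted p = 0.65), and -0.05 after centring on the gene median. The diet difference in KO livers passed without HET P1 (limma adjusted p = 0.0302).

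The RefSeq promoter table of GRCm38.p6 held 4 of the 10 members: Tgfb1, Tgfb2, Bgn and Timp1. The 250 bases before the annotated start are shown for Tgfb2, which was called in KO livers on HFD, for its paralog Tgfb1, which was not, and for Bgn, which was called. They lie at chr1:186705990-186706239 on the minus strand for Tgfb2, at chr7:25686752-25687001 on the plus strand for Tgfb1 and at chrX:73483351-73483600 on the plus strand for Bgn. Capitals mark the TATA box letters TATAAA and the GC box letters GGGCGG on either strand, and each line runs 5′ to 3′ toward the start.
Tgfb2: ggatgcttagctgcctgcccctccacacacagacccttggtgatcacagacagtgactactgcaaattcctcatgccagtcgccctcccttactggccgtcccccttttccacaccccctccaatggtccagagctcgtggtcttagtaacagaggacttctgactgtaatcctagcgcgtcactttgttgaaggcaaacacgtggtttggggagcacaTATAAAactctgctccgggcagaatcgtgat
Tgfb1: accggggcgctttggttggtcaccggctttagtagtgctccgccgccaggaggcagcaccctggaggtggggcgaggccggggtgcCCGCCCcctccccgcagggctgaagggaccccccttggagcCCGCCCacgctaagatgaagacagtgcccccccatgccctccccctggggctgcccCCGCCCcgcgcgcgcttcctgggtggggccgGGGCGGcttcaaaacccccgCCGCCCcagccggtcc
Bgn: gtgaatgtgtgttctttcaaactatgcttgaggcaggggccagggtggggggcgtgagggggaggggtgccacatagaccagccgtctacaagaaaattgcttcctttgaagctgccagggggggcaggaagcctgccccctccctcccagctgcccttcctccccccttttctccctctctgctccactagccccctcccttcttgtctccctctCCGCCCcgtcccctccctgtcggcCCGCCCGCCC
Tgfb2 has 1 TATAAA, beginning 31 bases before the start, and no GGGCGG. Tgfb1 has no TATAAA and 5 GGGCGG, beginning 164, 123, 67, 36 and 16 bases before the start. In Bgn the 3 GGGCGG begin 34, 10 and 6 bases before the start, the last 2 overlap, and there is no TATAAA. Over all 32851 windows of that length, 12.37% held TATAAA and 32.74% held GGGCGG on either strand. The letters CAGACA, which SMAD3 and SMAD4 can bind, occur 1 time in Tgfb2, beginning 204 bases before the start, in none of Tgfb1, Bgn and Timp1, and in 17.13% of all windows. TGANTCA (the AP-1 site, in 6.75% of windows) and TGACGTCA (the cAMP response element, in 1.55%) were in none of the 4.

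**Figure D2:**
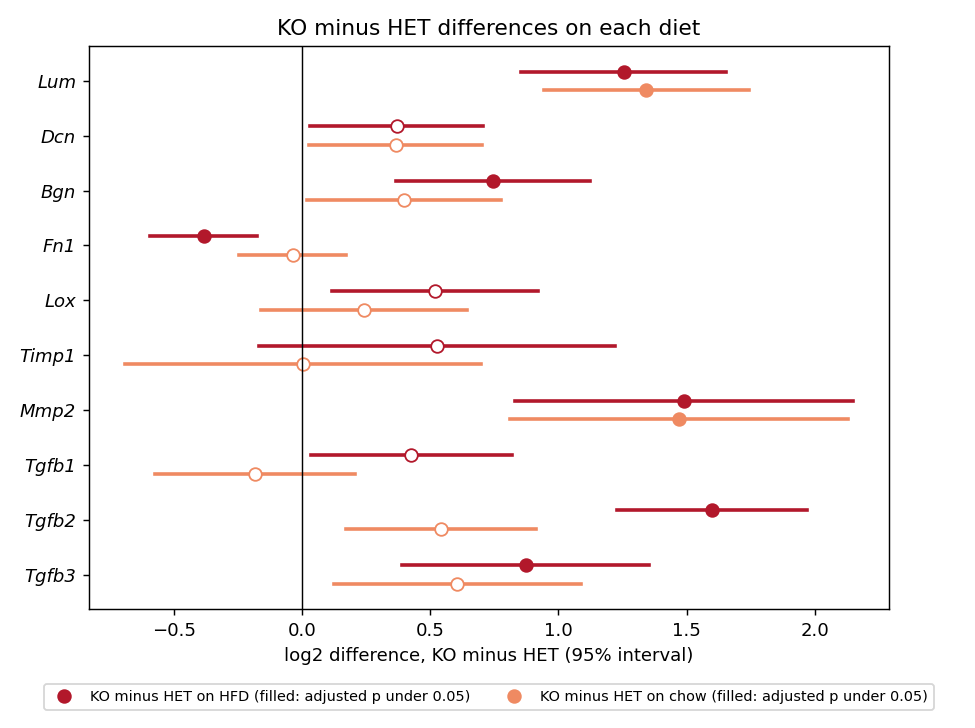
Log2 difference KO minus HET (x axis) with its 95% interval for the 10 genes (y axis) on HFD and on chow, where filled points have an adjusted p under 0.05. The point estimates of Lum and Mmp2 sit at about the same place on both diets. Tgfb2 is at 1.60 on HFD and 0.54 on chow, and Fn1 is the gene called below 0.

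Counted over the 10 members, KO livers on HFD had 5 higher than HET livers (Lum, Bgn, Mmp2, Tgfb2 and Tgfb3) and 1 lower (Fn1). Over all genes 5.50% were called higher and 2.06% lower in that comparison, 7.56% in all. On HFD 8 of 10 members lay above their HET arrays without overlap (13.3% of all genes) and 1 below (12.8%), and the median member difference was 0.64, against -0.02 over all genes. On chow 2 of 10 members, Lum and Mmp2, were higher than in HET livers and 0 lower, against 1.44% and 0.478% of all genes, 1.92% in all. There 3 of 10, with Tgfb2, lay above the HET arrays without overlap (9.59% of all genes) and 0 below (9.30%), and the median member difference was 0.38 against -0.01. Against WT livers Lum, Mmp2 and Tgfb2, 3 of 10, were higher and 0 lower, against 1.24% and 0.410% of all genes, 1.65% in all. Of the 10, 5 lay above the WT arrays without overlap (15.1% of all genes) and 0 below (13.5%). These chow comparisons share the 3 KO arrays. Averaged over both diets 5 of 10 were higher and 0 lower, against 6.52% and 2.90% of all genes, 9.43% in all. Because the members were chosen with earlier results of these data known, these counts are not an independent test of enrichment.

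How the arrays were scaled moved the calls over all genes. With each array centred on its median over the 22180 genes, which was 2.90 to 3.18, those of KO against HET on HFD became 915 higher and 3543 lower, in place of 1221 and 456. After a second quantile normalization they were 954 and 713. On chow centring on the gene median gave 248 and 261 in place of 320 and 106, against WT 213 and 147 in place of 276 and 91, and averaged over diets 1059 and 4906 in place of 1447 and 644. That centring shifted the median of all genes by -0.22 on HFD, by -0.12 on chow, by -0.13 against WT and by -0.17 averaged over diets. The median over all probe sets ran the other way between KO and HET arrays. Centring on it, an alternative chosen after seeing the data, shifted the median of all genes by 0.06 on HFD and gave 1481 higher and 315 lower genes there, and on HFD Fn1 was then not called (limma adjusted p = 0.0527). With age as a linear term the count of members called was 0 in each of these 4 comparisons. Lum kept its direction, at 1.57 ± 1.21 on chow and 1.34 ± 0.50 on HFD, as did Tgfb2 on HFD, at 0.92 ± 0.41. The chow differences of Mmp2, Bgn and Dcn turned to -1.14 ± 1.84, -2.24 ± 0.84 and -2.04 ± 0.73. The age slope in that fit comes from the HET and WT groups alone, since ages did not vary within either KO group.

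Other contrasts moved few members. Diet within KO livers called 1 of 10, Tgfb2, as higher and 0 lower (0.207% and 0.108% of all genes, 0.316% in all), and Bgn, Tgfb1 and Tgfb2 did not overlap between diets (3 of 10 higher against 9.22% of all genes, 0 lower against 9.68%). Diet within HET livers called 0 of 10 members in limma's fit, with 1 at an unadjusted p under 0.05. Over all genes 0.0496% were higher and 0.149% lower in that comparison, 0.198% in all. Fn1 alone was above its chow arrays without overlap there, as were 6.75% of all genes, and 0 members were below, against 6.83%. For HET against WT on chow the limma count was 0 of 10, with 1 at an unadjusted p under 0.05, and 0% of all genes were called. That 1 was Lum, 0.49 ± 0.21 higher in HET livers (limma adjusted p = 0.999). Lum and Timp1 lay above the WT arrays without overlap (10% of all genes), and 0 members lay below (7.87%). The limma interaction count was 0 of 10, with 3 at an unadjusted p under 0.05 (Fn1, Tgfb1 and Tgfb2). Over all genes the interaction was called higher for 0.0316% and lower for 0.00451%, 0.0361% in all.

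The order of the 5 group means, from high to low, was KO HFD, KO chow, HET HFD, HET chow and WT for Dcn, Bgn, Mmp2 and Tgfb2. In that order the KO HFD and KO chow arrays were apart for Bgn and Tgfb2 and overlapped for Dcn and Mmp2. The KO chow and HET HFD arrays were apart for Dcn, Bgn and Mmp2 and overlapped for Tgfb2. The HET HFD, HET chow and WT arrays overlapped, neighbour by neighbour, for these 4 genes. For Lum the order was KO chow, KO HFD, HET HFD, HET chow and WT, with gaps between KO HFD and HET HFD and between HET chow and WT. Fn1 ran HET HFD, WT, HET chow, KO HFD and KO chow, and Tgfb1 ran KO HFD, HET HFD, HET chow, WT and KO chow, each with 1 gap, after its first group. Tgfb3 (KO HFD, KO chow, WT, HET chow and HET HFD) and Lox (KO HFD, KO chow, HET chow, WT and HET HFD) had no gap between neighbours. Timp1 (KO HFD, HET HFD, KO chow, HET chow and WT) had 1, between HET chow and WT. Lum and Mmp2 were the 2 members for which all 6 KO arrays lay above all 8 others, which held for 2.77% of all genes, and 0 members had all 6 below (1.10%).

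Some pairs of members moved together within groups, as a description over 14 arrays from which group means were removed. Others did not, such as Fn1 with Mmp2 at 0.07, Lox with Timp1 at 0.03 and Timp1 with Tgfb2 at -0.32. The pairs named here were picked from all member pairs. The correlation within groups was 0.85 for Lum and Tgfb3, 0.79 for Dcn and Bgn, 0.76 for Dcn and Tgfb1 and 0.73 for Bgn and Tgfb1. For Lum with Dcn it was 0.26 and for Lum with Bgn 0.18, although over all 14 arrays these pairs stood at 0.82 and 0.79. Fn1 with Tgfb1 was at -0.55 and with Bgn at -0.46 within groups. Single arrays deviated in many members at once. In HET F1 on chow 9 of 10 members lay above their group mean, by 0.25 on average, in KO H1 on chow 1 of 10, by -0.17 on average, and in KO C3 on HFD 2 of 10, by -0.24 on average. Over all genes the same 3 arrays deviated from their group means by 0.02, -0.01 and 0.00.

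Mmp2 and Timp1 were each set beside the genes with the most similar pattern over the 14 arrays, among genes above the median mean level. For Mmp2 the 5 nearest by Pearson correlation were Ms4a7 (0.96), Emp1 (0.96), Mlkl (0.95), Tgfbi (0.95) and Col1a2 (0.94). For Timp1 they were Nxpe3 (0.81), Ighv1-53 (0.81), Tmed7 (0.79), Ighm (0.78) and Igkv5-43 (0.77), a weaker likeness that rests on the same dim values.

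The wider TGF-beta pathway was followed through lists chosen with earlier results of these data known, some of which share genes. Their counts are therefore not an independent test of the pathway. Beside the counts below, 5.50% of all genes were called higher and 2.06% lower in KO than HET livers on HFD. On chow these shares were 1.44% and 0.478%. Of 12 genes listed around storage and release of the latent ligands, 3 were higher and 0 lower in KO than HET livers on HFD, with a list median of 0.29. These were Ltbp1, a latent-TGF-beta-binding protein (1.12 ± 0.14, limma adjusted p = 5.63e-04), Ltbp2 (1.16 ± 0.29, limma adjusted p = 0.0256) and the integrin Itgb5 (0.59 ± 0.12, limma adjusted p = 0.00884). Ltbp2 was listed as a relative of Ltbp1 by family, not as a shown store of latent ligand, and is also on the target gene list. It was dim, with HFD means of 3.08 in KO and 1.92 in HET livers, the latter below the array medians. On chow 3 were higher and 0 lower with a median of 0.12: Ltbp1 (1.32 ± 0.14, limma adjusted p = 3.57e-04), Itgb5 (0.59 ± 0.12, limma adjusted p = 0.0234) and Itgb8, the integrin that frees latent ligand at cell surfaces (0.94 ± 0.19, limma adjusted p = 0.022). Of 5 receptors, the signalling receptor Tgfbr2 was higher on HFD (1.03 ± 0.20, limma adjusted p = 0.00718), and on chow the count was 0 of 5. Among 11 SMAD proteins and their regulators 0 were called on either diet, with medians of -0.02 on HFD and 0.17 on chow. Of 12 measured target genes 5 were higher and 0 lower on HFD with a median of 0.87, led by Col3a1 (1.46 ± 0.23), Col1a2 (1.57 ± 0.28) and Col1a1 (2.07 ± 0.41), with limma adjusted p of 0.00195, 0.00409 and 0.008. On HFD 10 of these 12 had a positive difference. Smad7 and Id1 went the other way without being called, with HFD means of 5.12 in KO against 5.39 in HET livers and 4.41 against 4.67. On chow 1 of 12 was higher, the secreted matrix protein Tgfbi (0.82 ± 0.14, limma adjusted p = 0.00775), with a median of 0.58. Among 12 genes listed as other fibrogenic ligands and receptors 3 platelet-derived growth factor genes were higher on HFD, Pdgfc (1.28 ± 0.23), Pdgfb (1.21 ± 0.24) and Pdgfd (1.29 ± 0.30), with limma adjusted p of 0.0047, 0.00919 and 0.0189 and a list median of 0.55. On chow 1 of those 12 was higher, Fgf21 (1.98 ± 0.45, limma adjusted p = 0.0424), with a list median of 0.39. Fgf21 is a hepatokine and not a platelet-derived growth factor gene, and its place on the list does not make it fibrogenic. None of the platelet-derived growth factor genes was called against HET livers on chow.

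**Figure D3:**
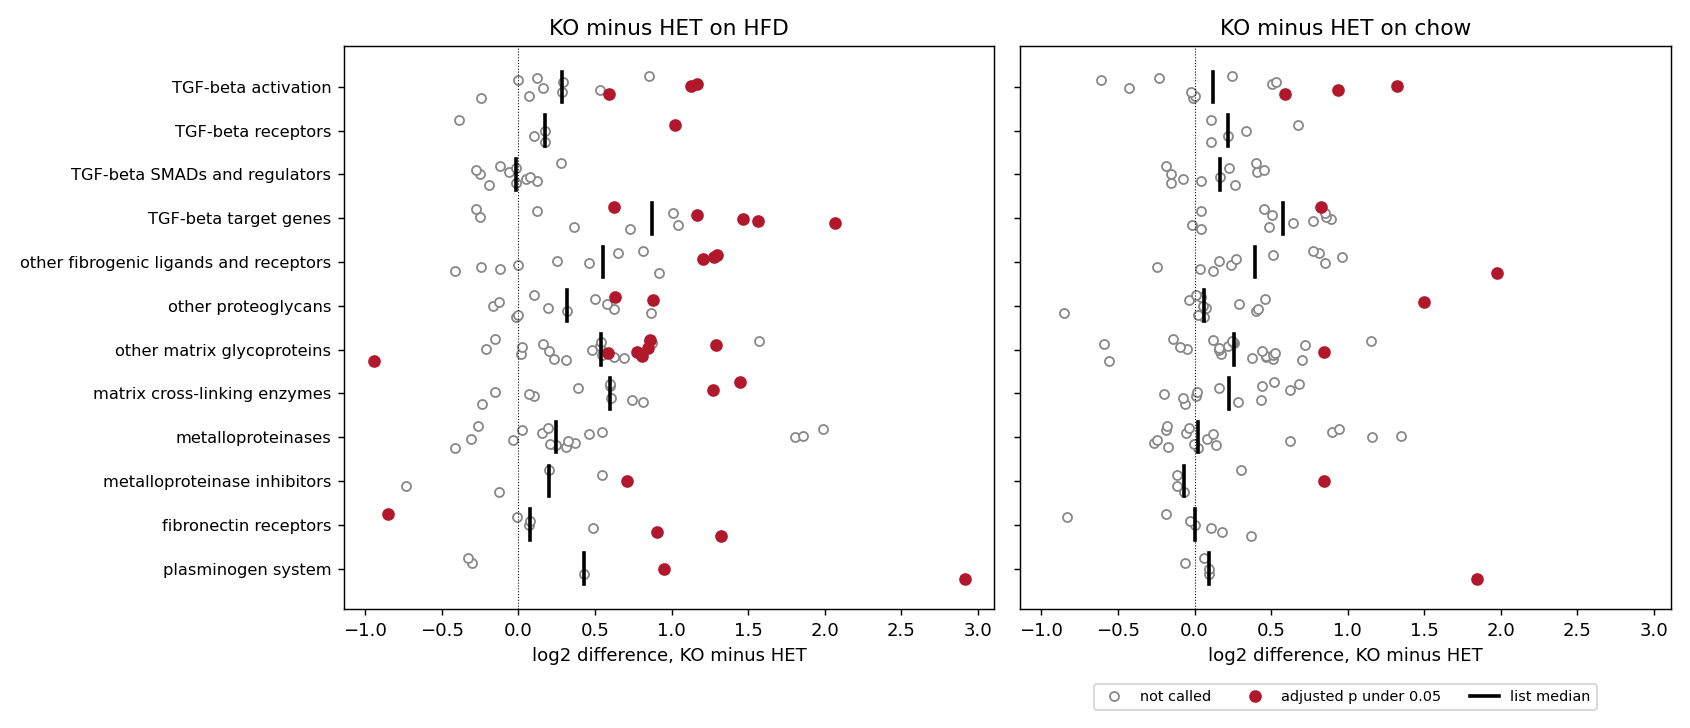
Log2 difference KO minus HET (x axis) of every gene of 12 lists around the 10 members (y axis), on HFD and on chow. Red points have an adjusted p under 0.05 and black bars are list medians, such as 0.87 for the TGF-beta target genes on HFD and -0.02 for the SMADs on HFD.

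Genes near the members by role were counted in the same way. The shares of all genes called higher and lower were 5.50% and 2.06% on HFD and 1.44% and 0.478% on chow. Averaged over diets they were 6.52% and 2.90%. Of 13 other proteoglycans 2 were higher on HFD, Srgn (0.63 ± 0.11) and Podn (0.88 ± 0.24), and 1 on chow, osteomodulin (Omd, 1.498 ± 0.296). Of 24 other matrix glycoproteins 6 were higher and 1 lower on HFD, among them the basement membrane protein Nid1 (1.29 ± 0.21), Fbln2 (0.81 ± 0.18) and, lower, Ecm1 (-0.95 ± 0.20). On chow 1 of those 24, the laminin chain Lama2, was higher (0.85 ± 0.18). Of 12 cross-linking and collagen-processing enzymes 2 were higher on HFD, transglutaminase 2 (Tgm2, 1.45 ± 0.18) and Pcolce (1.27 ± 0.30), and 0 on chow. Beside Timp1, its relative Timp2 was higher on both diets, by 0.71 ± 0.14 on HFD (limma adjusted p = 0.00714) and 0.85 ± 0.14 on chow (limma adjusted p = 0.00653), the 1 called gene of 5 inhibitors. Beside Mmp2, 0 of 17 other metalloproteinases were called on either diet, while averaged over diets 2 were higher, the collagenase Mmp13 (1.60 ± 0.43, limma adjusted p = 0.0332) and Mmp23 (0.72 ± 0.20, limma adjusted p = 0.0401), both named after their values were seen. The tissue plasminogen activator Plat, whose product can activate plasmin, was 2.91 ± 0.34 higher on HFD and 1.85 ± 0.34 higher on chow, and its list counted 2 of 5 on HFD, with the urokinase receptor Plaur (0.95 ± 0.19), and 1 of 5 on chow. Of 7 fibronectin receptors Cd44 (1.32 ± 0.27) and Itga4 (0.91 ± 0.18) were higher and syndecan 4 (Sdc4, -0.85 ± 0.11) lower on HFD, and 0 were called on chow.

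Markers of the cells that make matrix moved in different directions beside the members. Shares of all genes called higher and lower were again 5.50% and 2.06% on HFD, 1.44% and 0.478% on chow, and 6.52% and 2.90% averaged. Of 13 measured stellate cell markers 0 were higher and 3 lower in KO than HET livers on HFD, Reln (-0.76 ± 0.16), Ecm1 and Hhip (-1.79 ± 0.50), and on chow Lrat, which stores retinoid, was the 1 lower (-1.22 ± 0.23). On each diet 7 of the 13 had a positive difference, with Pdgfrb at 0.81 ± 0.26 on HFD (limma adjusted p = 0.0853) and Tagln at 0.55 ± 0.16 on HFD (limma adjusted p = 0.061). Averaged over both diets 3 were higher, Pdgfrb (0.79 ± 0.19), Tagln (0.48 ± 0.12) and Gdf2 (0.38 ± 0.09), and 4 lower, Ecm1, Lrat, Reln and Hhip. Pdgfrb, Tagln and Gdf2 were named after their values were seen. The summed level of the 13 stellate cell markers on the log2 scale was 10.60 to 11.02 in KO and 10.99 to 11.10 in HET livers on HFD. On chow it was 10.47 to 10.65 in KO, 10.55 to 11.11 in HET and 10.58 to 11.12 in WT livers. On HFD that sum leans on Rgs5, Ecm1 and Lrat, the brightest of the list. Overlap of the sums does not show that the dimmer markers were unchanged. Of 7 measured portal fibroblast markers 3 were higher on HFD, Dpt (2.37 ± 0.41), Cd34 (1.96 ± 0.42) and Fbln2, and 0 on chow. Their sum was 8.002 to 8.86 in KO and 6.12 to 7.01 in HET livers on HFD, and 7.68 to 8.56 in KO, 6.89 to 7.46 in HET and 6.43 to 7.05 in WT livers on chow. Dpt was the brightest of that list. Without it, as chosen after seeing the data, the sum was 6.33 to 6.97 in KO and 5.38 to 5.90 in HET livers on HFD, and 6.02 to 6.64 in KO, 5.44 to 5.94 in HET and 5.53 to 5.75 in WT livers on chow. Cd34 was then the brightest, with HFD means of 5.75 in KO and 3.79 in HET livers, so the reduced sum leans on it. Thy1 and Eln were not called on either diet. Clec3b and Gli1, of that list, lay below the array medians in all 5 groups.

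Macrophage and hepatocyte markers moved as well. Their counts stand beside 5.50% of all genes called higher and 2.06% lower on HFD, and 1.44% and 0.478% on chow. Of 14 macrophage markers 4 were higher and 1 lower on HFD, with Cx3cr1 at 2.87 ± 0.17, Trem2 at 1.85 ± 0.23 and Timd4 at -1.39 ± 0.22, and 2 were higher and 1 lower on chow. The macrophage sum was 11.41 to 11.55 in KO and 10.84 to 11.37 in HET livers on HFD, and 10.63 to 11.06 in KO, 10.58 to 11.25 in HET and 10.58 to 11.10 in WT livers on chow. Of 9 measured hepatocyte markers 0 were higher and 4 lower on HFD, and 0 were called on chow. Their sum was 15.61 to 15.63 in KO and 15.82 to 15.84 in HET livers on HFD, and 15.71 to 15.76 in KO, 15.77 to 15.79 in HET and 15.81 in WT livers on chow. None of the hepatocyte markers lay below the array medians in any group, as the label liver implies. Of 8 measured cholangiocyte markers 1, Tspan8, was higher on HFD (2.04 ± 0.38) and 0 on chow. Their sum was 7.60 to 8.08 in KO and 7.07 to 7.57 in HET livers on HFD, and 7.67 to 8.39 in KO, 6.86 to 7.44 in HET and 6.90 to 7.28 in WT livers on chow, with Sctr below the array medians in every group. Among 9 endothelial markers Stab2 was the 1 lower on HFD (-0.40 ± 0.11), and 0 of 6 mesothelial, 0 of 8 lymphocyte and 0 of 7 neutrophil markers were called on either diet. The part of these cell type markers in the members' differences was not tested.

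**Figure D4:**
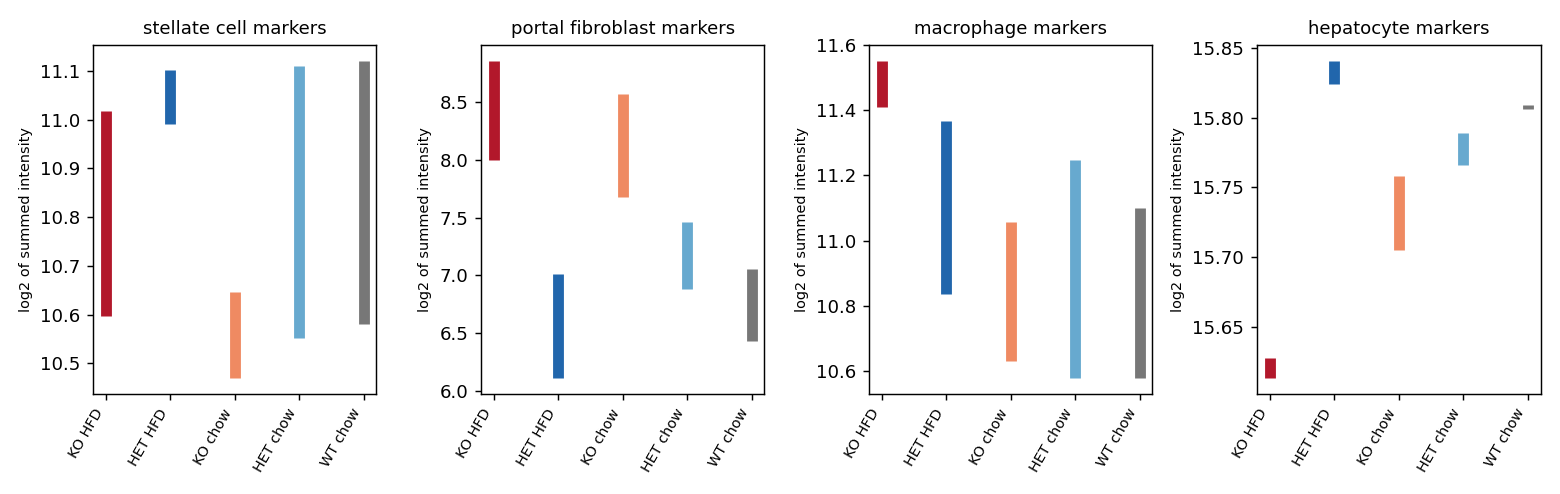
Range over arrays (bars) of the summed intensity of 4 of the marker lists on the log2 scale (y axis), by group (x axis). KO ranges lie above HET ranges on both diets for portal fibroblast markers and below them for hepatocyte markers, while the stellate cell ranges overlap. Such sums weigh the brightest markers of a list most.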

How the data were processed

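RNA of 14 liver samples (400 ng each, extracted with RNeasy and labelled with the WT Plus kit, per the labels' protocols) was hybridised to 1 array per sample. The deposited values are log2 intensities of 41345 probe sets made by the authors with RMA, per the submitters' processing notes, which also name limma; versions and genome build are not given in the sources used here. Of the probe sets 23521 had 1 symbol, 1814 several and 16010 none, and the brightest per symbol gave 22180 genes.

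Groups came from the genotype and diet labels. One mean per group was fitted to the 14 arrays with limma 3.58.1 in R 4.3.3 (lmFit, contrasts.fit, eBayes; 9 residual and 3.833 prior degrees of freedom), p-values were adjusted by Benjamini-Hochberg over all genes within a comparison, and genes were called at an adjusted p under 0.05. The number of arrays limits the precision. The p-values measure only the spread between these samples.

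All 10 members were described; from each other list up to 3 called genes with the smallest p were named per main comparison, and the 5 genes most like Mmp2 and Timp1 were sought among genes above the median mean level of 3.02. The members and lists were chosen with earlier results of these data known. Marker sums are log2 of summed linear intensities. Promoter windows came from RefSeq. Alternatives were array weights, a trended robust prior, a filter on dim probe sets (above the array median over probe sets with 1 symbol in at least 2 arrays), other probe set rules, a fit on the compared groups alone, array centring on the median over genes or, added after seeing the data, over all probe sets, quantile normalization, array letter as a block, age as a linear term and each array left out.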

Additional observations from a re-analysis of the deposited data

How the results depend on the processing

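With age as a linear term the members called fell to 0 for KO minus HET on chow, KO minus WT on chow, KO minus HET on HFD and KO minus HET averaged over both diets. With that term these log2 differences changed sign. On chow, KO minus HET was -2.04 for Dcn, -2.24 for Bgn, 0.43 for Fn1, -0.31 for Lox, -1.14 for Mmp2 and -1.19 for Tgfb2. KO minus WT was -1.82 for Dcn, -2.10 for Bgn, -0.88 for Mmp2 and -0.86 for Tgfb2. On HFD, KO minus HET was -0.57 for Dcn, -0.28 for Bgn and -0.47 for Tgfb1. Averaged over both diets it was -1.30 for Dcn, -1.26 for Bgn, 0.11 for Fn1, -0.33 for Mmp2, -0.13 for Tgfb2 and -1.49 for Tgfb1. HFD minus chow in HET livers was -0.60 for Tgfb1 and -0.40 for Tgfb2. The age slope rests on HET chow ages of 24 to 26.4 weeks, HET HFD ages of 30 to 30.4 and WT ages of 24.6 and 27. It is extended to KO ages of 35.3 and 38.9 weeks. For the chow KO minus HET values above, standard errors ran from 0.61 (Fn1) to 1.84 (Mmp2). The values are therefore not differences freed of age, and no conclusion is drawn from their signs. The cause was not tested. Centring on the median over genes turned KO minus HET to -0.11 for Timp1 on chow and to -0.047 for Tgfb1 averaged over both diets, and centring on the median over all probe sets, added after seeing the data, reversed 0 of the values reported. With only the groups compared in the fit, which has fewer arrays, 1 member was called for KO minus HET on chow and 0 for HFD minus chow in KO, where array weights gave 2.

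Without 1 array the members called ranged from 1 to 2 for KO minus HET on chow (1 without F2, P1, H2 or I1), from 1 to 3 for KO minus WT (1 without G1, N1, H2 or I1), from 3 to 6 for KO minus HET on HFD (3 without A2 or C4), from 5 to 6 averaged over diets and from 0 to 2 for HFD minus chow in KO (0 without H1 or H2). Small differences crossed 0: KO minus HET on chow ran from -0.10 to 0.080 for Timp1 and from -0.40 to 0.011 for Tgfb1, HFD minus chow in KO from -0.14 to 0.16 for Lum and from -0.0068 to 0.59 for Mmp2, and HFD minus chow in HET from -0.033 to 0.38 for Tgfb1. Tgfb2 against WT was lost under 5 other planned settings (adjusted p of 0.0503 to 0.154 in limma). After quantile normalization the limma adjusted p on HFD was 0.106 for Tgfb3 and 0.0686 for Fn1. Of the single-gene values under the other planned settings, 415 kept direction and side of the threshold, 23 changed sign, 19 lost and 7 gained a call. The trended prior, the dim filter, the compared-groups fit and the test of every probe set keep the same group means. Direction could not change under those settings, so the count of kept directions is not a measure of robustness. No paired analysis was possible because the array names carry no replicate number shared between groups. The consensus correlation within array letters was 0.051. No letter occurred in more than 1 group, and all 3 KO HFD arrays carried the letter C. A letter effect in KO HFD livers therefore cannot be told apart from the group, and the block fit cannot detect it. Lox and Timp1, below the array medians in 13 of 14 arrays, are limited by signal over background.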
